A study of Mus musculus with 10 samples.

Results

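Keratinocyte growth factor (KGF) was tested here as an addition to cultures of differentiating mouse embryonic stem cells that already received DCI, the treatment that the study's title describes as dexamethasone with raised cAMP. The comparison rests on 4 of the study's 10 Affymetrix arrays, chosen by their labels: 2 from cultures given KGF and DCI and 2 from cultures given DCI alone, with 1 array of each kind at day 17 and 1 at day 24 of differentiation. All cells were of the C57BL/6 strain, and total RNA of the whole culture was hybridised. The 4 arrays without DCI from the same days (2 with KGF, 2 Control) entered the fit and give the difference made by KGF when DCI is absent. The day 8 arrays (KGF and Control) had no counterpart with DCI. Each condition had 1 array per day, so p-values rest on how far the KGF difference varied between the days, within each DCI state, and not on replicate cultures. With 2 pairs of arrays, an exact paired permutation test cannot go below p = 0.5, and the test used was limma's moderated test across 18193 genes with Benjamini-Hochberg adjustment, at an adjusted p under 0.05.

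KGF, also named FGF7, is a secreted factor made by mesenchyme that acts on epithelial cells through the epithelial splice form of the receptor Fgfr2. It drives epithelial growth in lung, skin and gut, and in the lung it is used to favour growth and maturation of alveolar type II cells, which make surfactant. Glucocorticoids and cAMP raise surfactant gene expression in fetal lung. Values below are log2 RMA expression values of 1 probe set per gene, and differences are log2 differences of KGF and DCI minus DCI. Levels of different genes are not comparable on this scale, since each probe set binds with its own strength.

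The 4 arrays carried their DCI label: the glucocorticoid target Fkbp5 read 9.01 and 9.21 with KGF and DCI and 9.42 and 9.30 with DCI alone (days 17 and 24), against 7.04 to 7.99 on the KGF and Control arrays of those days. No transcript marks an added protein, so KGF itself was not checked this way. The epithelial adhesion genes Cdh1 and Epcam were bright on all 4 arrays (10.49 to 11.90), while Nkx2-1, the lung and thyroid lineage factor, read 4.47 to 5.00, below the median of all values (6.67). The 3′ minus 5′ signal difference of the Actb control was 0.54 to 0.62 on the 4 arrays, and 1.05 on the day 8 Control array, which stood apart from the other 9. For the dap spike-in it was 2.49 with KGF and DCI and 2.68 with DCI alone at day 17, and 1.43 with KGF and DCI and 1.35 with DCI alone at day 24. Markers of other tissues were present too, and the measurements are of mixed cultures. In such bulk RNA, more cells of a type and more RNA per cell cannot be told apart.

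With KGF added to DCI, 11 genes rose and 1 fell (0.0605% and 0.00550% of the 18193 genes, 0.0660% together), and 1366 had an unadjusted p under 0.05 (7.51%). Of those that rose, 5 are on the list of airway secretory genes: Bpifa1 (9.07-fold), Wfdc18, Reg3g, Cxcl17 and Wfdc2. The others were Serpinb11, Msln, Aldh1a7, Igfbp5, the ciliary dynein light chain gene Dynlrb2 and AU040972. The interferon-induced gene Ifi27l2a fell. By size alone, 14 genes were at least 2-fold higher on both days (0.0770%) and 4 at least 2-fold lower (0.0220%). At day 17 there were 77 genes 2-fold higher (0.423%) and 25 lower (0.137%), and at day 24 there were 49 (0.269%) and 31 (0.170%).

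The largest difference among the genes past the test was that of Bpifa1, which encodes a secreted antimicrobial and surface-active protein of the upper airways. Bpifa1 read 10.92 with KGF and DCI and 7.98 with DCI alone at day 17, and 10.98 with KGF and DCI and 7.56 with DCI alone at day 24. Both arrays with KGF lay above both without it, by 3.18 ± 0.15 on average (limma adjusted p = 0.000192). Each ± here and below is limma's moderated standard error. It pools both DCI states and draws on other genes, and is not the spread of the 2 daily differences with DCI. Wfdc18, which encodes a secreted protein with a WAP protease-inhibitor domain, read 8.69 and 6.73 with and without KGF at day 17, and 12.13 and 10.47 at day 24. Its level moved more between the days than with KGF, yet the KGF difference was alike on both, 1.96 and 1.67, and averaged 1.81 ± 0.09 (adjusted p = 0.000192). The daily differences of Bpifa1 were 2.94 at day 17 and 3.42 at day 24.

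Reg3g, an antibacterial lectin of mucosal surfaces, read 9.88 with KGF and DCI and 8.46 with DCI alone at day 17, and 12.95 with KGF and DCI and 11.75 with DCI alone at day 24. Cxcl17, a chemokine of mucosal epithelia, read 8.69 with KGF and DCI and 7.24 with DCI alone at day 17, and 10.45 with KGF and DCI and 9.29 with DCI alone at day 24. Both genes were about 2.5 times as high with KGF: the difference was 1.31 ± 0.11 for Reg3g (2.49-fold, adjusted p = 0.00558) and 1.31 ± 0.09 for Cxcl17 (2.47-fold, adjusted p = 0.00265). Reg3g is also on a mucosal defence list. On that list 6 of 27 measured genes were higher and 12 lower on both days (median -0.15), against 26.6% and 27.1% of all genes. Wfdc2, an abundant secreted protein of airway epithelium, was higher by 1.01 ± 0.12 (adjusted p = 0.0439), reading 10.87 and 9.70 with and without KGF at day 17 and 12.35 and 11.50 at day 24. Serpinb11, a member of the serpin family, was higher by 1.27 ± 0.11 (adjusted p = 0.00695), AU040972 by 1.15 ± 0.12 (adjusted p = 0.0248) and the mesothelial surface gene Msln by 0.67 ± 0.08 (adjusted p = 0.0439). Aldh1a7, an aldehyde dehydrogenase, was higher by 0.65 ± 0.07 (adjusted p = 0.0333). For Igfbp5, which encodes a binding protein of insulin-like growth factors, the probe set used gave 0.52 ± 0.06 (adjusted p = 0.0405) and the gene's other probe set 0.09, so its rise was seen on 1 of 2 probe sets.

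**Figure D1:**
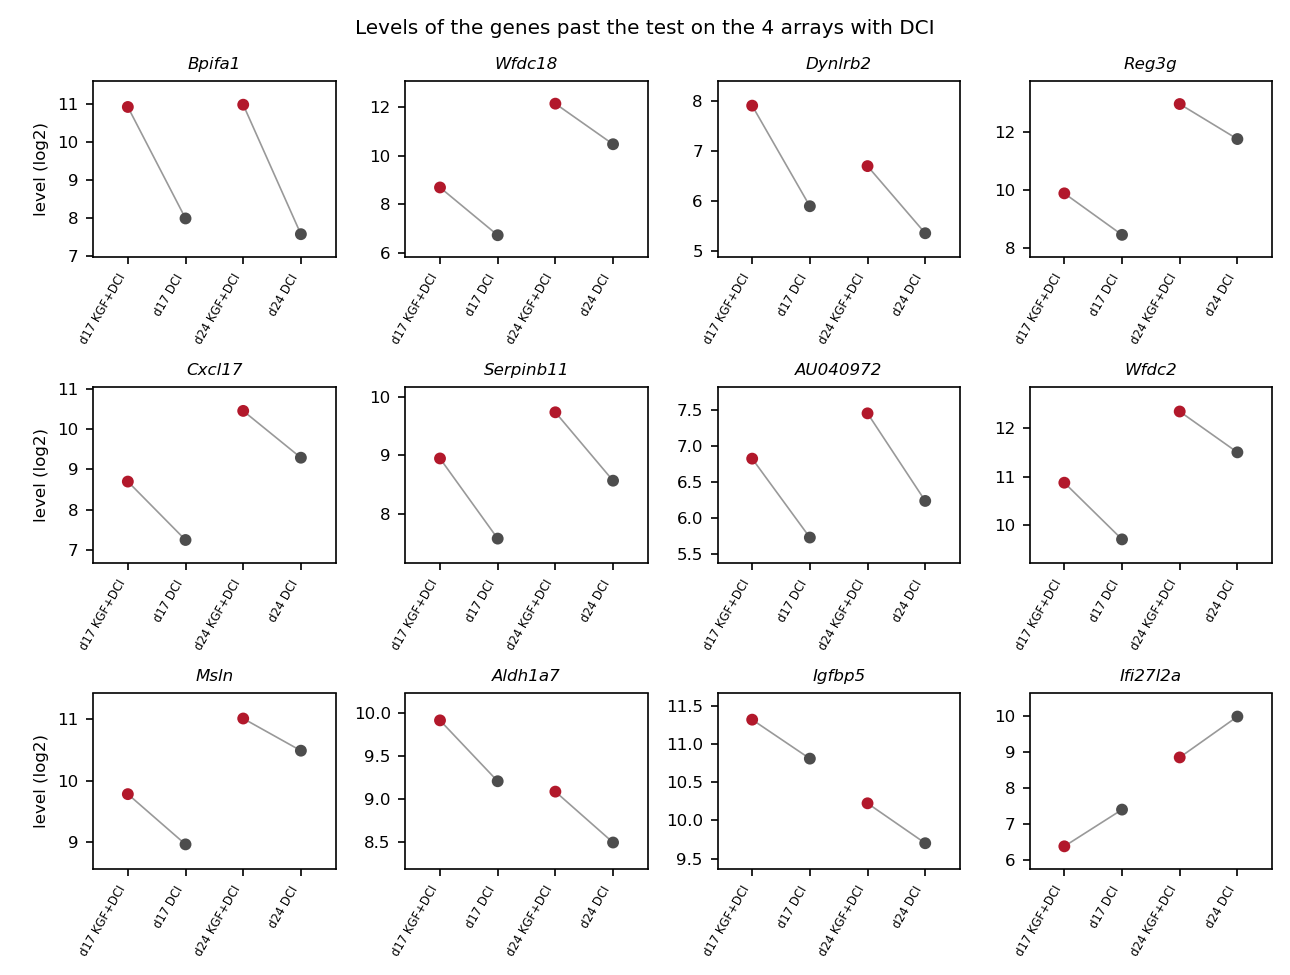
Log2 expression level (vertical axes, each with its own range and not starting at 0) of the 12 genes past the test on the 4 arrays with DCI, red for KGF and DCI and grey for DCI alone, with lines joining the arrays of a day; each point is 1 array. Bpifa1 read 10.92 and 10.98 with KGF and DCI against 7.98 and 7.56 with DCI alone, and Ifi27l2a alone lay lower with KGF on both days.

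Airway secretory genes were mostly higher. The gene lists were chosen with earlier results of these data known, so their counts are a description and not a test. Of 25 measured genes on a list for airway secretory cells, 5 rose and 0 fell, 21 were higher on both days and 0 lower on both days, and the median difference was 0.92 (0.91 at day 17, 0.68 at day 24). Over all genes 26.6% were higher on both days, 27.1% lower on both days and 46.3% moved opposite ways, with a median difference of 0. At 1.5-fold on both days, 12 of the 25 were higher and 0 lower, against 0.473% and 0.126% of all genes.

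Other airway genes were higher but missed the threshold. Cxcl15, which encodes the lung chemokine lungkine, read 8.68 and 6.82 with and without KGF at day 17 and 8.48 and 6.87 at day 24 (1.74 ± 0.25, adjusted p = 0.0636). Its other probe set gave 1.44. Scgb3a2, a secretoglobin of developing airway, read 5.38 with KGF and DCI and 4.87 with DCI alone at day 17, against 7.41 with KGF and DCI and 4.43 with DCI alone at day 24. Most of its mean difference of 1.75 ± 0.46 (adjusted p = 0.365) came from day 24, where the array with both treatments stood alone. The club cell secretoglobin Scgb1a1 showed the reverse timing, with a difference of 1.77 at day 17 and 0.65 at day 24 (adjusted p = 0.489). The mucin Muc5b was higher by 0.89 at day 17 and 1.46 at day 24 (adjusted p = 0.541), and Scgb3a1, another secretoglobin, by 0.52 and 1.71 (adjusted p = 0.278; named after its values were seen). Agr2, needed for mucin folding, was among the list's genes with little difference, 0.18 ± 0.17 (adjusted p = 0.876), and was named after its values were seen.

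**Figure D2:**
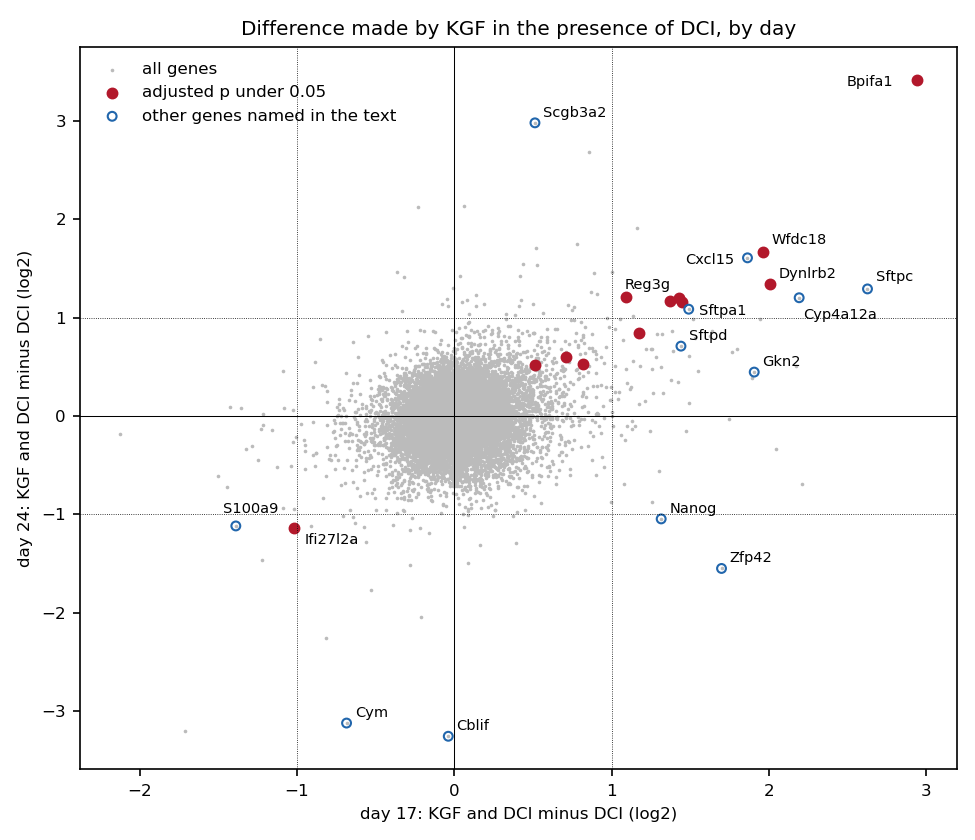
Log2 difference of KGF and DCI minus DCI at day 17 (horizontal axis) and day 24 (vertical axis) for 18193 genes (grey), with genes past the test in red, other genes named in the text ringed in blue, and dotted lines at 2-fold. Bpifa1 lies farthest out at 2.94 and 3.42, while Scgb3a2, Cym and Cblif differ mostly at day 24.

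The surfactant genes were higher with KGF on both days, and none passed the test. Sftpc, which encodes surfactant protein C and is the defining marker of alveolar type II cells, read 8.03 with KGF and DCI and 5.40 with DCI alone at day 17, and 7.34 with KGF and DCI and 6.05 with DCI alone at day 24. Its 2 arrays with KGF lay above its 2 without, by 1.96 ± 0.28 (3.89-fold, adjusted p = 0.0636), with 2.63 at day 17 and 1.29 at day 24. The gene's other, dimmer probe set gave 0.05. Sftpa1, for surfactant protein A, read 5.72 and 4.23 with and without KGF at day 17 and 5.19 and 4.11 at day 24, a difference of 1.29 ± 0.17 (adjusted p = 0.0551) that its other probe set matched at 1.19. All 4 levels were below the median of all values. Sftpd, for surfactant protein D, read 8.41 with KGF and DCI and 6.97 with DCI alone at day 17, and 11.00 with KGF and DCI and 10.29 with DCI alone at day 24 (1.08 ± 0.15, adjusted p = 0.0636), and Sftpb, for surfactant protein B, differed by 0.60 ± 0.18 (adjusted p = 0.429). On each of the 4 genes both daily differences were positive.

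The rest of the type II program moved less. Napsa, the protease that processes surfactant protein B, differed by 0.18 ± 0.14, the surfactant lipid transporter Abca3 by 0.15 ± 0.08, the transcription factor Etv5 by 0.10 ± 0.10 and Nkx2-1 by -0.27 ± 0.20 (adjusted p = 0.776 to 0.902). Of 18 measured type II genes 0 passed, 12 were higher and 2 lower on both days, and the median difference was 0.19. Alveolar type I markers gave 0 of 14 past the test, with a median difference of 0.14. Among them the water channel Aqp5 differed by 0.51 ± 0.18 (adjusted p = 0.541) and the receptor Ager by 0.39 ± 0.12 (adjusted p = 0.494), with -0.05 on a second Ager probe set.

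**Figure D3:**
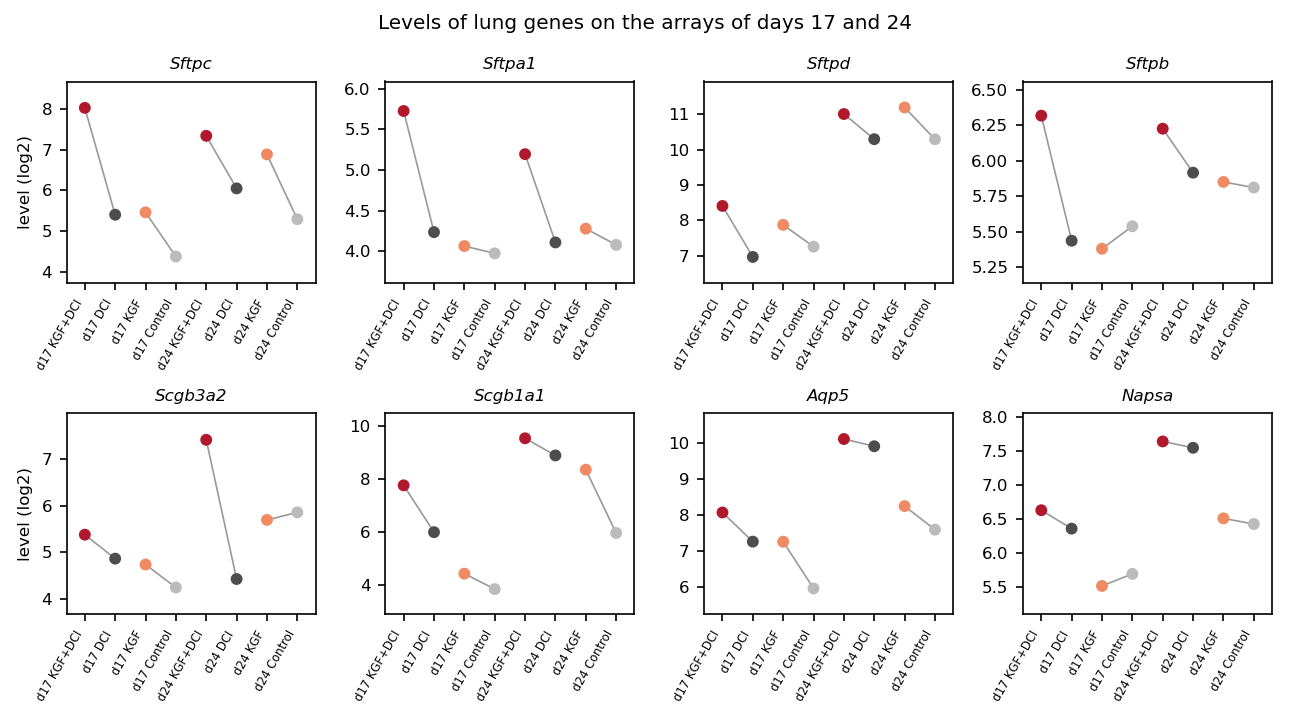
Log2 expression level (vertical axes, own range per gene, not starting at 0) of 8 lung genes on the 8 arrays of days 17 and 24, with lines joining the 2 arrays of a day and DCI state; red is KGF and DCI, dark grey DCI, orange KGF and light grey Control, 1 array per point. Sftpa1 read 5.72 and 5.19 with both treatments and 3.97 to 4.28 on the other 6 arrays, whereas Napsa differed little with KGF in either DCI state.

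Genes of motile cilia, the beating appendages of multiciliated airway cells, formed the next group. Of 43 measured genes 1 rose, 27 were higher and 1 lower on both days, 7 were at least 1.5-fold higher on both days, and the median difference was 0.35. Only 13 of the 43 reached the median of all values on any of the 4 arrays, so most were read in the lower part of the scale. Dynlrb2, a dynein light chain, read 7.91 with KGF and DCI and 5.90 with DCI alone at day 17, and 6.70 with KGF and DCI and 5.36 with DCI alone at day 24 (1.67 ± 0.20, adjusted p = 0.0439). Pifo, a gene of the ciliary base, was higher by 1.25 ± 0.23 (adjusted p = 0.147), Tmem212 by 1.06 ± 0.17 (adjusted p = 0.0921) and Capsl by 0.95 ± 0.18 (adjusted p = 0.157). Foxj1, the master regulator of motile cilia, read 6.70 and 5.67 with and without KGF at day 17 but 5.98 and 5.73 at day 24 (0.63 ± 0.20, adjusted p = 0.493). For Enkur and Lrrc23, whose products are axonemal, the day 24 difference was likewise small (1.37 and 0.36 for Enkur, 1.75 and -0.03 for Lrrc23; both were named after their values were seen).

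RFX factors, which act with Foxj1 on cilia genes, bind the X-box, part of which is GTTGCC. The RefSeq promoters of the GRCm38.p6 mouse assembly were searched for GTTGCC on either strand (GGCAAC on the reverse) in the 250 bases before the start. A gene counted as holding a match if any of its promoters did. Of 36 cilium genes with a RefSeq promoter, 16 held a match (44.4%), against 11.8% of all 27025 genes with a promoter. The airway secretory list had 1 of 16 (6.2%) and the general epithelial list 1 of 24 (4.2%). Among the 11 genes that rose, 9 had a promoter and 2 held a match. The 4 sequences below are from the cilium genes with a match that had the largest KGF differences with DCI, genes of 1 chromosome left out. They were thus picked by their values and do not stand for the list. Each is written 5′ to 3′ on the gene's strand with the match in capitals: Dynlrb2 (chr8:116504765-116505014, plus strand), Pifo (chr3:106001498-106001747, minus strand), Enkur (chr2:21205366-21205615, minus strand) and Lrrc23 (chr6:124779728-124779977, minus strand).
Dynlrb2: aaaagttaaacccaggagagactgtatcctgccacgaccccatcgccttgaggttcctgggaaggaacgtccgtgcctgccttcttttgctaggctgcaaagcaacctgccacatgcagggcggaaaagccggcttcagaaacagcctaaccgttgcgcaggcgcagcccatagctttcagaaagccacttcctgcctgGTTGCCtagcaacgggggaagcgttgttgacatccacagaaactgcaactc
Pifo: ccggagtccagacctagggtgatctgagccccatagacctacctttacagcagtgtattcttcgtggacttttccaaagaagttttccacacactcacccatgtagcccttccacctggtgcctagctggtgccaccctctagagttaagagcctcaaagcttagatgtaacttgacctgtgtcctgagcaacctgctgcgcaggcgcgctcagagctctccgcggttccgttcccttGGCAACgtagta
Enkur: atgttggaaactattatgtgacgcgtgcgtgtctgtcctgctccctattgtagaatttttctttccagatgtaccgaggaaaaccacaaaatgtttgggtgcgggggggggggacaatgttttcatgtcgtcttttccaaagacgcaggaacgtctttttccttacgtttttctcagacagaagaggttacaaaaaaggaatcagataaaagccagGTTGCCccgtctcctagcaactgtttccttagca
Lrrc23: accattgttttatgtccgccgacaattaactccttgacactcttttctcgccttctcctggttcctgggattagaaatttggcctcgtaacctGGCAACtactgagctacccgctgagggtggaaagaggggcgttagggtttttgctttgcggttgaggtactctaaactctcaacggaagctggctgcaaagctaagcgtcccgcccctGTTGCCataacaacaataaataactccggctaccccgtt
The match begins 51 bases before the start in Dynlrb2, 12 in Pifo and 34 in Enkur, and Lrrc23 has 2, at 157 and 39. A match did not go with a larger KGF difference: the median was 0.18 over the 16 cilium genes with a match and 0.24 over the 20 without. The GRHL motif AACCGGTT, the ETS motif CCGGAAG and the forkhead motif TGTTTAC were searched the same way. Each was in 0 of the 9 genes that rose and had a promoter. Of all genes with a promoter, 0.1%, 7.8% and 3.5% held them. A match is a description of the letters and not evidence of a bound site.

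General epithelial genes differed by less. Of 38 measured genes 0 passed the test, 29 were higher and 0 lower on both days, 9 went opposite ways, and the median difference was 0.25 (range -0.02 to 0.59). The epithelial transcription factor Ehf differed by 0.59 ± 0.11 (adjusted p = 0.155; other probe sets -0.23 to 0.52), the tight junction gene Cldn4 by 0.53 ± 0.08 (adjusted p = 0.0636), Cdh1 (E-cadherin) by 0.34 ± 0.06 (adjusted p = 0.149) and Epcam by 0.29 ± 0.06 (adjusted p = 0.249), although a second Epcam probe set gave -0.21. The part of epithelial content in the airway, surfactant and cilium differences was not tested. The housekeeping list had a median difference of 0.01.

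In the receptor pathway of KGF, 0 of 29 measured genes for FGF receptors, ligands and feedback regulators passed. On both days 19 were higher and 2 lower, against 26.6% and 27.1% of all genes, and the median difference was 0.18. At an unadjusted limma p under 0.05, 10 of the 29 were higher and 0 lower, against 770 and 596 of all 18193 genes. Fgfr2, the gene of the KGF receptor, read 8.46 to 8.63 on the 4 arrays, and the feedback genes Dusp6 and Spry4 differed by 0.18 ± 0.07 (adjusted p = 0.589) and -0.08 ± 0.14 (adjusted p = 0.949). The immediate early gene Egr1 was higher by 0.39 ± 0.07 (adjusted p = 0.125). Of 29 cell cycle genes 0 passed, 2 were higher and 12 lower on both days, and the proliferation marker Mki67 differed by 0.05 ± 0.09 (adjusted p = 0.937).

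Among genes lower with KGF, Ifi27l2a read 6.37 with KGF and DCI and 7.39 with DCI alone at day 17, and 8.84 with KGF and DCI and 9.98 with DCI alone at day 24. It fell by 1.08 ± 0.10 on the log2 scale (2.11-fold, adjusted p = 0.00695). Of 25 interferon and antigen-processing genes 0 passed, 16 were lower and 3 higher on both days (median -0.17), with Ifit1 at -0.81 ± 0.15 (adjusted p = 0.173). S100a9, a calcium-binding protein of neutrophils and stressed epithelia, read 3.74 with KGF and DCI and 5.13 with DCI alone at day 17 and 4.37 with KGF and DCI and 5.49 with DCI alone at day 24, a difference of -1.25 ± 0.17 (adjusted p = 0.0626) in the dim range. The lowest difference of all genes was that of Idi2, an isopentenyl diphosphate isomerase gene named after its values were seen, at -2.46 ± 0.39 (adjusted p = 0.0976). Idi2 read 3.05 with KGF and DCI and 4.76 with DCI alone at day 17, and 3.22 with KGF and DCI and 6.42 with DCI alone at day 24, all under the median of all values. The intestinal list of 30 genes held Pdgfb in place of sucrase-isomaltase (Sis), through a shared older symbol. On this list 0 passed, 16 were lower and 4 higher on both days (median -0.25). Its genes included the secreted lectin Reg4 (-1.01 ± 0.15, adjusted p = 0.0653), the guanylate cyclase ligand Guca2a (-0.86 ± 0.17, adjusted p = 0.185) and Cdx2, the intestinal lineage factor (-0.85 ± 0.23, adjusted p = 0.367; other probe set -0.28).

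Gastric genes went different ways. Gkn1 and Gkn2, which encode gastrokines of the stomach surface, were higher by 2.17 and 1.91 at day 17 and by 0.51 and 0.45 at day 24 (adjusted p = 0.62 and 0.707). Cblif, the intrinsic factor gene, read 4.69 and 4.72 with and without KGF at day 17, but 5.08 with KGF and DCI and 8.34 with DCI alone at day 24. Cym, for the milk-clotting protease chymosin and named after its values were seen, read 8.75 with KGF and DCI and 11.87 with DCI alone at day 24, but 12.18 with KGF and DCI and 12.87 with DCI alone at day 17. Both differences rest on the day 24 arrays. Beside the lung genes, Cyp4a12a, a cytochrome P450 of fatty acid hydroxylation, was higher by 1.70 ± 0.22 (adjusted p = 0.0558) and the carboxylesterase Ces1d by 1.54 ± 0.26 (adjusted p = 0.125).

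Markers of other cells moved as well. Of 26 macrophage genes 0 passed, 19 were lower and 0 higher on both days (median -0.30). Their median level was 7.68 and 6.16 with KGF and DCI, and 7.84 and 6.73 with DCI alone (days 17 and 24). C1qa, a complement gene of macrophages, differed by -0.64 ± 0.15 (adjusted p = 0.278) and Csf1r, the growth factor receptor that defines them, by -0.29 ± 0.08 (adjusted p = 0.405). Of 25 skeletal muscle genes 0 passed, 23 were higher and 0 lower on both days (median 0.52), and their median level was 7.30 and 8.03 with KGF and DCI against 6.91 and 7.59 with DCI alone. Neb, which encodes the thin-filament protein nebulin, differed by 1.23 ± 0.55 (adjusted p = 0.679). Without DCI the muscle list's median difference was 1.68 at day 17 and 0.08 at day 24. With 1 array per condition and day, array noise and a change between the days cannot be told apart. The part of these cells in the other differences was not tested. Of 20 pluripotency genes 15 went opposite ways on the days, against 46.3% of all genes. Zfp42 and Nanog were the 2 genes of all 18193 (0.0110%) that went opposite ways by at least 2-fold each way.

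**Figure D4:**
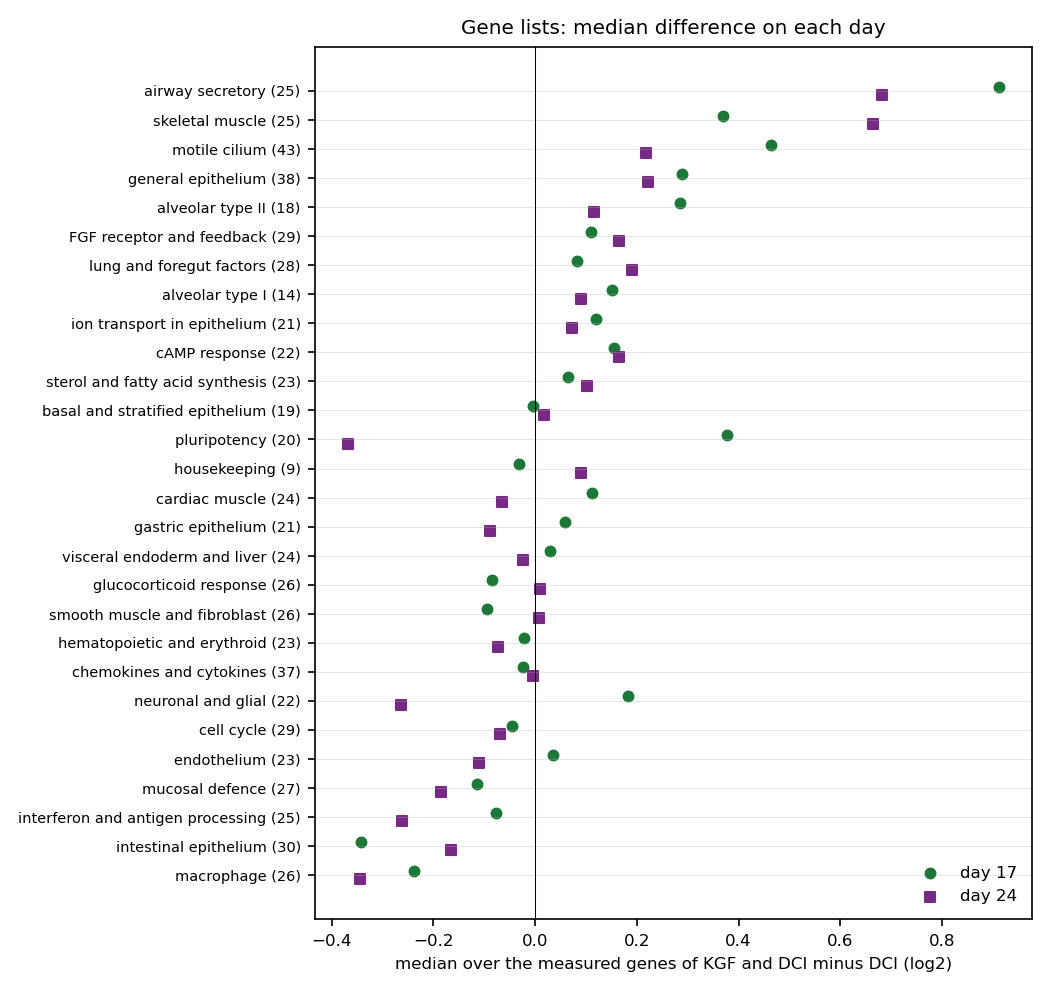
Median log2 difference of KGF and DCI minus DCI over the measured genes of each of 28 lists (number in brackets), at day 17 (circles) and day 24 (squares), ordered by the median of the mean differences. The airway secretory list has the highest value on both days (0.91 and 0.68), and the pluripotency list lies at 0.38 at day 17 and -0.37 at day 24.

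The study's title names a synergy of KGF and DCI. The comparison set beside it here is whether the log2 KGF difference with DCI departs from the one without. Equal log2 differences are equal fold changes, so a joint effect above the sum on the unlogged scale was not tested. By limma 0 of 18193 genes passed (smallest adjusted p = 0.9994), with 457 at an unadjusted p under 0.05 (2.51%). That share is smaller than the one a threshold of 0.05 gives when no gene differs. The median 95% interval of this comparison, before adjustment over genes, reached 0.43 to either side on the log2 scale, and departures well beyond that, listed below, did not pass the adjusted test either. Without DCI, 16 genes rose with KGF (0.0879%) and 1 fell. Of the 12 genes past the test with DCI, 10 also passed without it (83.33% of the 12 and 58.82% of the 17), and all 11 that rose were higher on both days without DCI too. The 2 tests share their estimate of the spread. Across all genes, the 2 mean differences correlated at Pearson's r = 0.47 and Spearman's rho = 0.31, a description over genes that share arrays.

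Gene by gene, the 2 differences were close for some and apart for others. The difference was 1.81 ± 0.09 with DCI and 1.88 ± 0.09 without it for Wfdc18 (interaction -0.07, 95% interval -0.36 to 0.22). For Dynlrb2 it was 1.67 ± 0.20 with DCI and 1.99 ± 0.20 without, and for Sftpc 1.96 ± 0.28 with DCI and 1.34 ± 0.28 without (interaction 0.62, interval -0.29 to 1.53). The Sftpa1 difference was 1.29 ± 0.17 with DCI and 0.14 ± 0.17 without (interaction 1.14, interval 0.60 to 1.69, adjusted p = 0.999). Bpifa1 differed less with DCI, at 3.18 ± 0.15 against 4.17 ± 0.15 without it (interaction -0.99, interval -1.49 to -0.50, adjusted p = 0.999). Its level in the cultures without KGF was 7.98 and 7.56 with DCI and 6.51 and 5.70 in Control. The Ifi27l2a difference was -1.08 with DCI and -0.29 ± 0.10 without (interaction -0.78, interval -1.09 to -0.47, adjusted p = 0.999), and that of Reg4 was -1.01 with DCI and -0.07 ± 0.15 without.

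The smallest unadjusted p of the interaction among named genes was that of Pnliprp1, a pancreatic lipase-related gene. It read 8.14 and 6.75 with and without KGF at day 17 and 7.18 and 6.31 at day 24 in the presence of DCI. In its absence it read 6.40 with KGF and 7.21 in Control at day 17, and 5.46 with KGF and 7.34 in Control at day 24 (interaction 2.47, interval 1.71 to 3.23, unadjusted p = 5.79e-05, adjusted p = 0.999). The chymotrypsinogen gene Ctrb1 and the regenerating-family gene Reg2 had interactions of 1.55 ± 0.30 and 1.37 ± 0.32.

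**Figure D5:**
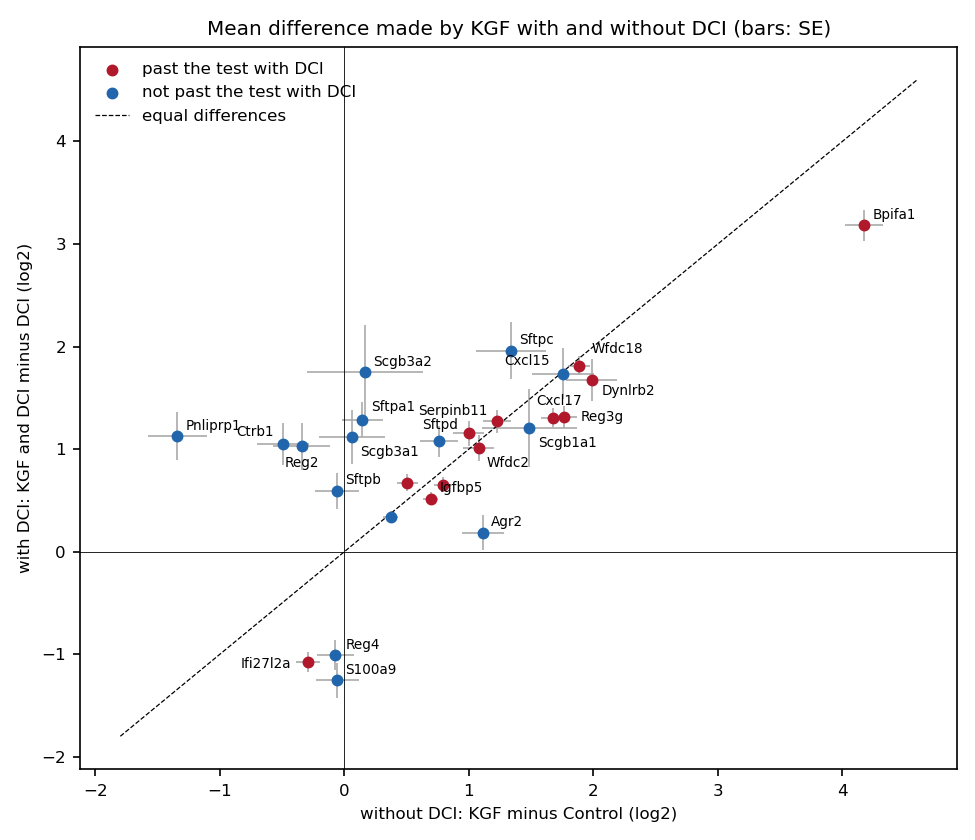
Mean log2 difference made by KGF without DCI (KGF minus Control, horizontal axis) and with DCI (KGF and DCI minus DCI, vertical axis) for named genes, with bars of 1 SE and a dashed line of equal differences; red genes passed the test with DCI. Wfdc18 lies near the line (1.88 and 1.81), Sftpa1 above it (0.14 and 1.29) and Bpifa1 below it (4.17 and 3.18).

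When 1 KGF difference was fitted over both DCI states, 210 genes rose (1.15%) and 39 fell (0.214%). On that fit 13 of 25 airway secretory genes rose, as did 14 of 43 cilium genes, 16 of 38 general epithelial genes, 4 of 29 FGF pathway genes and 2 of 18 type II genes. Sftpc rose by 1.65 ± 0.21 (adjusted p = 0.00622), Sftpd by 0.92 ± 0.11 (adjusted p = 0.00519), Cxcl15 by 1.74 ± 0.16 (adjusted p = 0.00125), Pifo by 1.40 ± 0.15 (adjusted p = 0.00352), Cdh1 by 0.36 ± 0.04 (adjusted p = 0.0042) and Foxj1 by 0.84 ± 0.15 (adjusted p = 0.0305). Sftpa1 did not pass (0.72 ± 0.21, adjusted p = 0.196). This fit assumes the same difference with and without DCI.

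The number of genes past the test with DCI varied with the fit and the arrays used. It was 12 in the fit described, 0 without a mean trend in the variances (1234 at an unadjusted p under 0.05), 215 when the 4 arrays with DCI were fitted alone and 0 when all 10 arrays were used (1122 at an unadjusted p under 0.05). Without the day 17 pair of DCI arrays 4 genes passed (Bpifa1, Wfdc18, Cblif and Cym), and without the day 24 pair 3 (Bpifa1, Wfdc18 and the airway cytochrome Cyp2f2, named after its values were seen). Across genes the day 17 and day 24 differences correlated weakly, at Pearson's r = 0.22 and Spearman's rho = 0.14 over all genes and 0.37 and 0.24 over the 9893 that reached the median level.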

How the data were processed

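RNA from differentiating mouse embryonic stem cells was hybridised to 10 arrays, 1 per condition. The authors deposited log2 expression values of 45101 probe sets, using Bioconductor (per the labels) and RMA (per the submitters' processing notes). Versions are not given in these sources, nor is it stated which arrays were normalised jointly. RMA evens out array distributions, so differences are relative to the other genes, and it compresses dim values. No genome build is named for the arrays.

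Platform annotation named 34945 probe sets with 1 symbol (932 had several, 9160 none, 64 were controls), giving 18193 genes. Where a gene had several, the brightest on average over all 10 arrays stood for it. Promoters came from RefSeq (GRCm38.p6), matched by symbol. The 8 arrays of days 17 and 24 were fitted in limma 3.58.1 (R 4.3.3) with 4 blocks of day and DCI state and a KGF effect for each DCI state, leaving 2 residual degrees of freedom (6.43 prior). eBayes used a mean trend. Benjamini-Hochberg adjustment ran over all 18193 genes. Errors are moderated standard errors (median 0.13), and the number of arrays limits the precision. With 1 array per condition, the spread holds array noise and any change of the KGF difference between days.

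The comparison, the 28 gene lists (668 of 702 genes measured) and the naming rule were chosen with earlier results of these data known. Through older symbols, Pdgfb stood in for Sis on the intestinal list and Trh for Trf on the visceral endoderm and liver list. The rule took up to 15 genes each way past the test (filled up from those 2-fold on both days), 5 each way for the interaction, a fixed set of lung, epithelial and pathway genes, and up to 4 per list with the largest differences of the same sign. For the genes past the test, those 2-fold on both days and those for the interaction, it left out 2 kinds. These were genes under the median level on all 4 arrays with DCI and clone-type symbols, such as AU040972. Alternatives were other variance priors, filters, probe set rules, scalings, thresholds and sets of arrays. Figures were drawn with matplotlib 3.10.9.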

Additional observations from a re-analysis of the deposited data

Results flagged for a closer look

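The pluripotency genes Zfp42 and Nanog differed at least 2-fold in opposite directions on the days, the 2 genes of 18193 to do so (0.0110%). Zfp42 was higher with KGF and DCI than with DCI by 1.70 at day 17 (6.43 with KGF and DCI, 4.74 with DCI) and differed by -1.55 at day 24 (4.41 with KGF and DCI, 5.96 with DCI). Nanog differed by 1.32 at day 17 (6.85 with KGF and DCI, 5.54 with DCI) and by -1.05 at day 24 (5.07 with KGF and DCI, 6.12 with DCI). The difference between days rests on 1 array per condition and was not tested. Of 20 measured pluripotency genes, 15 went opposite ways on the days, against 46.3% of all genes. The list's median difference was 0.38 at day 17 and -0.37 at day 24. Only 6 of the 20 reached the median of all values on any of the 4 arrays with DCI.

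Pnliprp1 was higher with KGF in the presence of DCI, by 1.13 on average, and lower on both days in its absence (-0.81 at day 17 and -1.88 at day 24). The test of that difference gave an adjusted p of 0.999 by limma.

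Among 10092 probe sets without a single gene symbol, which no comparison above used, 5 were at least 2-fold higher with KGF and DCI than with DCI on both days and 0 at least 2-fold lower.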

How the results depend on the processing

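The count of 12 genes past the test with DCI was 23 with a robust prior, 7 when probe sets were averaged per gene, 36 over every probe set by itself, 7 after a second quantile normalisation, 39 at an adjusted p under 0.10, 215 on the 4 arrays with DCI, 2 without separate DCI and day blocks, and 0 both without a mean trend and on all 10 arrays, with 3 to 4 when a day's pair of DCI arrays was left out. A filter on dim genes (14), centring on the median (8) and an added 2-fold size (9) kept it within 1.5 times. The cause of these changes was not tested. The robust prior kept 10 of the 12 genes and lost Dynlrb2 and Wfdc2. Averaging probe sets and the second quantile normalisation each kept Bpifa1, Wfdc18, Cxcl17, Reg3g, Serpinb11, AU040972 and Ifi27l2a. Centring on the median kept those and Aldh1a7. Without separate DCI and day blocks, Bpifa1 and Wfdc18 passed. The limit of 0.10 and the added 2-fold size reuse the main fit. No gene of the 12 can fail the former, and none above 2-fold the latter. The interaction count was 0 in all 13 alternatives run, with 248 to 979 at an unadjusted p under 0.05. Fitting the 4 arrays with DCI cannot give it. Without DCI the count of 17 was 1 without a mean trend, 53 at an adjusted p under 0.10 and 0 on all 10 arrays (1174 and 1064 at an unadjusted p under 0.05 for the 1 and the 0). By size, 86 genes were higher and 23 lower at 1.5-fold on both days, and the 4 lower at 2-fold became 1 after the filter on dim genes. Every fit but the one without separate DCI and day blocks compared arrays within a day and DCI state.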

Other observations

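Genes of the exocrine pancreas, a list chosen after values were seen and therefore not tested, had medians of opposite sign with and without DCI. Of 26 measured genes, 13 were higher and 4 lower on both days with KGF in the presence of DCI (median 0.23). The shares of all genes were 26.6% and 27.1%. In the absence of DCI the list's median was -0.17, and 13 of the 26 reached the median level. Over all genes the median difference was 0 with DCI and 0.0042 without. Not every gene changed sign: Gp2 was higher on both days in both DCI states, and Rbpjl and Pnliprp2 were lower on both days in both. Tmprss11e, an epithelial serine protease, differed by 0.43 ± 0.21 with DCI and by -0.86 ± 0.21 without it. Socs2, a cytokine-signalling suppressor, differed by 0.38 ± 0.07 with DCI (other probe sets -0.01 to 0.41) and -0.07 ± 0.07 without, and Ppp1r3c, a glycogen-targeting phosphatase subunit, by -0.25 ± 0.07 with DCI (other probe set 0.13) and 0.24 ± 0.07 without. No gene passed the interaction test by limma, and 457 (2.51%) had an unadjusted p under 0.05, fewer than that threshold gives when no gene differs.

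The epithelial ion transport genes included Aqp4, a water channel, which was higher by 1.07 ± 0.14 (adjusted p = 0.0539), and the carbonic anhydrase Car12, higher by 0.79 ± 0.12 (adjusted p = 0.0921) on 1 probe set and by 0.0007 and 0.08 on its others. Of 21 measured genes on that list 0 passed, 12 were higher and 3 lower on both days. Among developmental factors, Isl1 differed by 0.77 ± 0.17 (adjusted p = 0.257) and Irx5 by 0.60 ± 0.15 (adjusted p = 0.343), and of 28 measured lung and foregut factors 0 passed, with 16 higher and 7 lower on both days.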
